A study of Mus musculus with 8 samples.

Results

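The genes described here encode the structural proteins of the extracellular matrix: the collagen chains, the laminin chains, nidogens, fibrillins, fibulins, fibronectin, perlecan, agrin, thrombospondins, periostin and SPARC. They were taken by symbol from a deposited table of transcript abundances, in which 64 of 17589 genes matched, and 51 were kept, those whose FPKM averaged 0.5 or more across the 8 libraries. FPKM, an estimate of fragments per kilobase of transcript that is scaled to sequencing depth, corrects a value for transcript length and library size, so levels can be set side by side between genes. The nearest genes inside that floor were Col6a3 with a mean of 0.501 FPKM and Col9a3 with 0.526 FPKM, and the nearest outside were Lama2 with 0.493 FPKM and Col28a1 with 0.472 FPKM.

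The libraries came from germ cells of postnatal mouse testis and address how loss of the histone demethylase KDM1A changes gene expression in spermatogonia. The 4 KO libraries were made from mice labelled KDM1A KO, a conditional knockout called Kdm1a-cKO in the protocol, and the 4 control libraries from mice labelled Control. Both groups were C57BL/6, both carried the GOF/deltaPE-Oct4/GFP reporter, which drives green fluorescent protein in germ cells, and both were 6 days old. Testes were dissociated with collagenase B and trypsin, GFP-positive cells were collected on a cell sorter, and stranded mRNA libraries were prepared. The sources used here give neither the Cre driver of the conditional allele nor the deleted exons. Each library title carries its own identifier, but the labels do not say whether these stand for different mice. All p-values accordingly reflect the variation between these libraries alone, and that variation could be technical.

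Collagens and laminins are secreted as trimers of separate chains, and the chains that a cell makes set which fibrils or networks it can assemble. In the postnatal testis, spermatogonia rest on a basement membrane of laminins, type IV collagen, nidogens, perlecan and agrin that Sertoli cells and peritubular myoid cells lay down, while fibroblast-like cells of the interstitium make most of the fibrillar collagen. Germ cells attach to this matrix through integrins and other receptors.

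Kdm1a itself had 14.2, 14.1, 17.3 and 14.9 FPKM in KO replicates 1 to 4, against 53.7, 54.0, 92.0 and 48.1 FPKM in control replicates 1 to 4. The groups did not overlap, and KO libraries averaged 4.10-fold less (log2 change -1.92, SE 0.18, limma adjusted p = 7e-05). The KO mean was 15.1 FPKM. Throughout, values after ± are SDs over the 4 libraries of a group, and SE is the standard error of a log2 change. Depth, read off the size of a single fragment's step among weakly expressed genes, was 45500000 to 63000000 fragments per KO library and 60750000 to 67000000 per control library. Pearson's correlation of log2(FPKM + 1), over the 15083 genes averaging at least 0.5 FPKM, ran from 0.958 to 0.985 between KO libraries. It ran from 0.973 to 0.984 between control libraries, against 0.926 to 0.957 between a KO and a control library. The germ cell markers Ddx4, Dazl and Uchl1 averaged 187, 448 and 735 FPKM in KO libraries and 198, 400 and 708 FPKM in control libraries, and the 10 germ cell markers summed to 1756 to 2313 FPKM in KO and 1807 to 2017 FPKM in control libraries. Of these 10 markers Sall4 and Zbtb16 fell and Tex101 rose. Mean FPKM in KO and control libraries was 46.4 and 76.4 for Sall4, 22.3 and 61.2 for Zbtb16, and 165 and 102 for Tex101. Their log2 changes were -0.72, -1.47 and 0.69. By the summed Sertoli cell markers other than Ctsl, control replicate 1 stood with KO replicates 1, 3 and 4, and KO replicate 2 stood with the other controls.

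Of the 51 matrix genes, 16 rose and 11 fell in KO libraries and 24 did not pass the test, by limma on log2(FPKM + 1) with Benjamini-Hochberg adjustment over all 15083 genes of at least 0.5 FPKM. Over all those genes 37.6% were called, 25.9% higher and 11.8% lower. The 51 genes thus gave 27 calls, and the groups did not overlap in 26 of the 51, against 38.5% of all genes tested. Their median log2 change was 0.14, beside 0.10 for all genes tested. The split of calls depended on the scaling, with 14 rising and 15 falling after quantile normalization, and with 30 rising and 2 falling when every library was set to the same FPKM total. Equal totals moved the median of all genes to 0.71, and the 16 genes that rose still lay above that median and the 11 that fell still lay below it. Because that scaling applies 1 factor per library, it shifts most genes alike, so this order is no test of the calls. Under equal totals Col5a1 and Col13a1 kept their calls as lower, and the calls of the other 9 falling genes were lost. With small RNA genes (by name, numbered Gm genes included) left out of equal totals, 14 matrix genes rose and 13 fell. All 11 falling genes kept their calls there. Library totals were 700953 to 1767024 FPKM with those small RNA genes and 353257 to 469507 FPKM without them. Of the 51 genes, 3 had a control mean under 0.5 FPKM (Col11a1, Col12a1 and Col4a5) and 3 a KO mean under it (Col5a3, Col6a3 and Col9a3), so these passed the floor through 1 group. Among the 45 with both means at or above the floor, 13 rose and 9 fell.

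**Figure D1:**
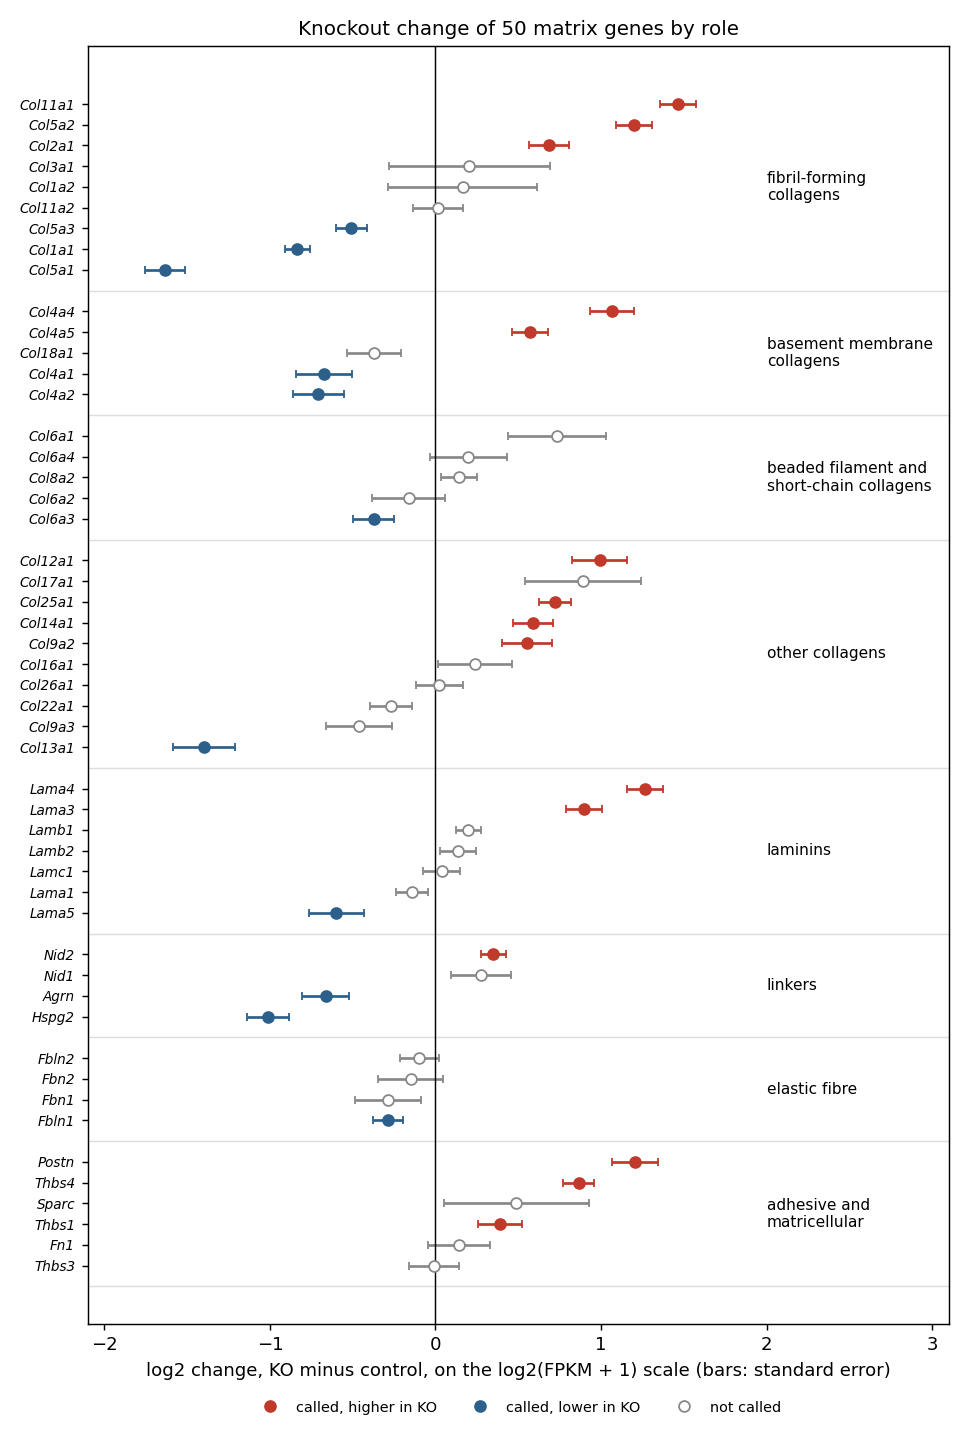
Log2 change of 50 of the matrix genes, KO minus control on the log2(FPKM + 1) scale (horizontal axis, bars are standard errors), grouped by role. Red points are 15 genes called higher in KO, blue points the 11 called lower, and open grey points the 24 not called. The fibril-forming, basement membrane and other collagens, the laminins and the linkers each hold red and blue points, with Col11a1 at 1.47 and Col5a1 at -1.63 in the same role.

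Among the fibril-forming collagens, whose chains build the banded fibres of connective tissue, 3 of 9 rose (Col11a1, Col5a2 and Col2a1), 3 fell (Col5a1, Col1a1 and Col5a3) and 3 were not called (Col1a2, Col3a1 and Col11a2). The largest log2 rise and the largest log2 fall among the 51 matrix genes were both here, in chains of the minor collagens on which fibrils start. By ratio of mean FPKM, Col12a1 rose further, 7.19-fold, and Col13a1 fell further, 3.71-fold. Col5a1 (chr2:27886425-28039514, plus strand), which encodes the main chain of type V collagen, had 5.15, 5.69, 7.17 and 6.35 FPKM in KO replicates 1 to 4, against 19.6, 25.1, 20.9 and 18.4 FPKM in control replicates 1 to 4. Every KO library was lower than every control library, with means of 6.09 ± 0.872 FPKM in KO and 21 ± 2.91 FPKM in control libraries (SD, n = 4 each), a 3.45-fold difference (log2 change -1.63, SE 0.12, limma adjusted p = 2.05e-05). Col11a1 (chr3:114030540-114220718, plus strand), a chain of type XI collagen that can also join type V trimers, had 3.24, 2.88, 2.67 and 2.78 FPKM in KO replicates 1 to 4, against 0.375, 0.671, 0.368 and 0.247 FPKM in control replicates 1 to 4. Every KO library was higher than every control library, with means of 2.89 ± 0.248 FPKM in KO and 0.415 ± 0.180 FPKM in control libraries, a 6.97-fold difference (log2 change 1.47, SE 0.11, limma adjusted p = 1.86e-05). The control values were under 1 FPKM in all 4 libraries, and the smallest estimate behind any of them was 113 fragments. The control mean of Col11a1 was under the 0.5 FPKM floor, so the gene was kept through its KO values.

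The start regions of these 2 genes are shown because their log2 changes lay furthest apart. Each is the RefSeq window on GRCm38.p6 of 250 bases before to 50 bases after the transcript start, written in the direction of transcription, Col5a1 at chr2:27886175-27886474 and Col11a1 at chr3:114030290-114030589, both on the plus strand. Capitals mark GC boxes (GGGCGG or CCGCCC) and CCAAT boxes (CCAAT or ATTGG).
Col5a1: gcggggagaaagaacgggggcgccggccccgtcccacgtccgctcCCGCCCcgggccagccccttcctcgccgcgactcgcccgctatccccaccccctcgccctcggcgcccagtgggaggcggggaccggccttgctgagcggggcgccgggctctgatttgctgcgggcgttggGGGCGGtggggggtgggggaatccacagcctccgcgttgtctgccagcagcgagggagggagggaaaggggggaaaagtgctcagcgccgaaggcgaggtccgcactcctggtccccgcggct
Col11a1: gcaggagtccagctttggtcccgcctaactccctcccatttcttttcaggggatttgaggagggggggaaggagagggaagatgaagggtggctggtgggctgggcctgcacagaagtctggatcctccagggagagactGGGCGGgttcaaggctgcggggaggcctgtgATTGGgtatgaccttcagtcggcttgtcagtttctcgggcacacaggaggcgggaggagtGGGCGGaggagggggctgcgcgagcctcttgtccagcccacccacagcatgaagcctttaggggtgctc
Both windows hold 2 GC boxes and no TATAAA or TTTATA, and Col11a1 alone of the pair holds a CCAAT box. Over all 32851 windows of the same length, 35.7% hold a GC box, 37.4% a CCAAT box and 13.6% a TATA box on either strand. These matches describe the letters of the windows and are not tested sites.

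Col5a2, the second chain of type V collagen, had 3.52, 4.05, 3.42 and 3.40 FPKM in KO replicates 1 to 4, against 1.37, 0.776, 1.01 and 0.888 FPKM in control replicates 1 to 4. It moved opposite to its partner Col5a1, with every KO library above every control library, and means of 3.60 ± 0.305 FPKM in KO and 1.01 ± 0.256 FPKM in control libraries gave a 3.56-fold difference (log2 change 1.2, SE 0.11, limma adjusted p = 5.34e-05). The ratio of Col5a1 to Col5a2 was 1.41 to 2.10 over the KO libraries and 14.4 to 32.4 over the control libraries, and the ratio of Col5a1 to Col11a1 was 1.59 to 2.68 over KO and 37.5 to 74.5 over control. In FPKM, Col5a1 was at least 14.4 times either of the other chains in every control library and at most 2.68 times either of them in every KO library.

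Col1a1 (chr11:94936224-94953042, plus strand), which encodes the major chain of type I collagen, was the most abundant collagen of the 51 genes. It had 15.5, 16.0, 15.3 and 15.7 FPKM in KO replicates 1 to 4, against 25.9, 31.2, 29.4 and 28.1 FPKM in control replicates 1 to 4. The KO libraries lay within 1 FPKM of each other and all below the controls, with means of 15.6 ± 0.285 FPKM in KO and 28.7 ± 2.22 FPKM in control libraries (log2 change -0.83, SE 0.08, limma adjusted p = 5.26e-05). Its partner chain Col1a2 had 2.60, 1.09, 2.14 and 2.37 FPKM in KO replicates 1 to 4, against 6.68, 0.466, 1.24 and 0.996 FPKM in control replicates 1 to 4. The groups overlapped, control replicate 1 was the highest library and control replicate 2 the lowest, and the difference did not pass the test (log2 change 0.16, SE 0.45, limma adjusted p = 0.802). Col3a1, the single chain of type III collagen, had 2.67, 1.04, 1.94 and 1.99 FPKM in KO replicates 1 to 4, against 6.81, 0.329, 1.06 and 0.744 FPKM in control replicates 1 to 4, with the same libraries highest and lowest (log2 change 0.21, SE 0.48, limma adjusted p = 0.767). Without control replicate 1 both were called higher in KO, Col1a2 with a log2 change of 0.67 (limma, adjusted p = 0.0484) and Col3a1 with 0.76 (limma, adjusted p = 0.0314). That library had the highest Sertoli marker sum of the controls. Genes that follow that sum rise in this fit, so nothing is read from these calls.

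Col2a1, the cartilage collagen, had 2.89, 4.15, 3.5 and 2.98 FPKM in KO replicates 1 to 4, against 1.36, 1.97, 1.86 and 1.66 FPKM in control replicates 1 to 4, with no overlap (log2 change 0.69, SE 0.12, limma adjusted p = 0.0021). Col5a3, a minor type V chain, had 0.329, 0.352, 0.539 and 0.285 FPKM in KO replicates 1 to 4, against 0.848, 1.17, 0.967 and 0.842 FPKM in control replicates 1 to 4. Its groups did not overlap either, and KO means of 0.376 FPKM lay under the floor used to keep genes, against 0.957 FPKM in controls (log2 change -0.51, SE 0.09, limma adjusted p = 0.00243). The remaining fibril-forming chain, Col11a2, averaged 0.732 FPKM in KO and 0.702 FPKM in control libraries and did not pass the test.

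**Figure D2:**
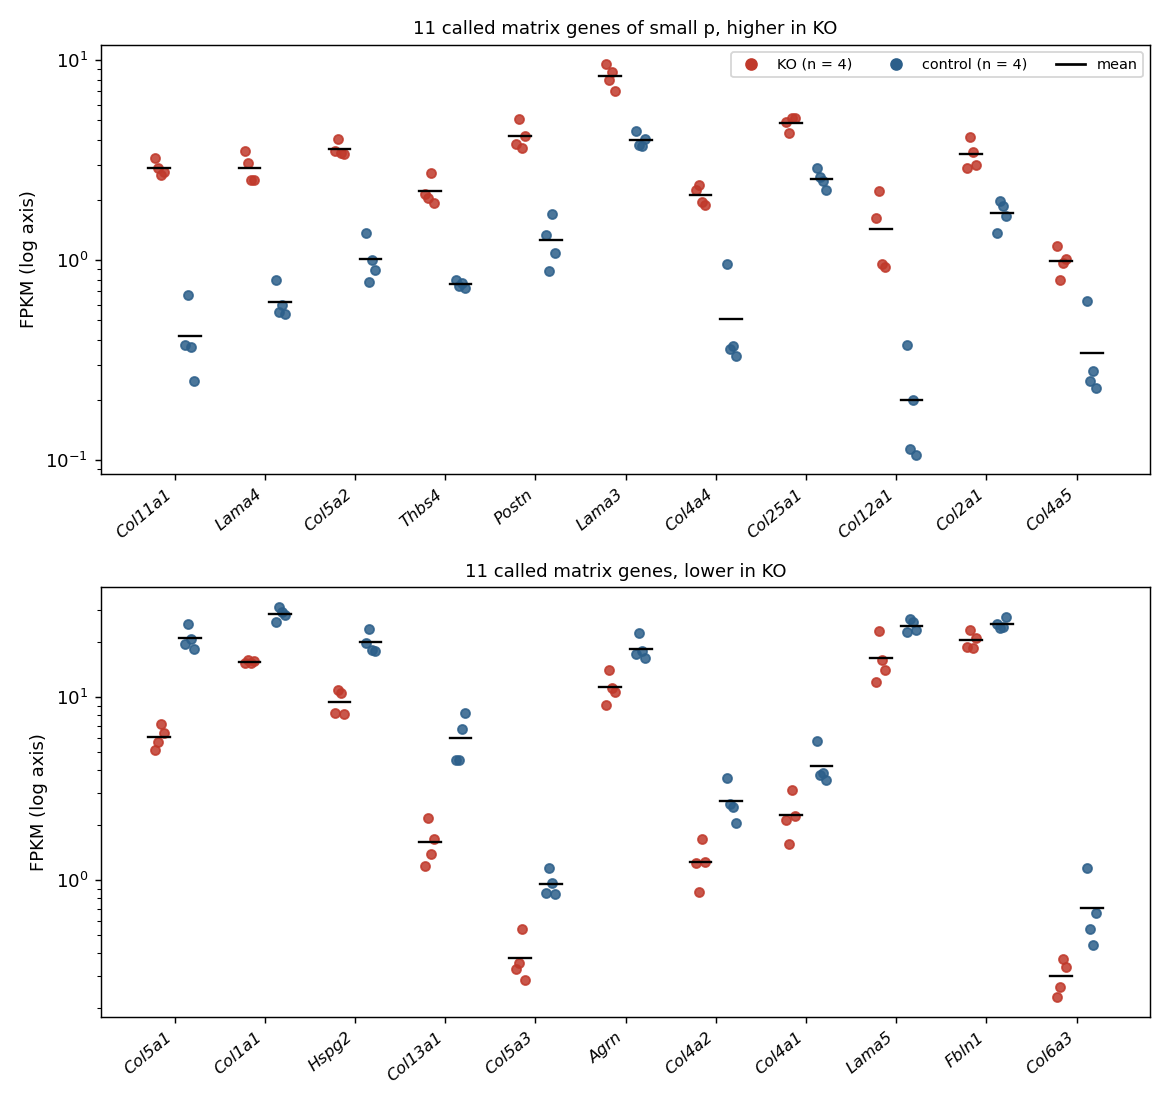
FPKM in every library (log vertical axis) for 11 matrix genes of small p among those called higher in KO (upper panel) and the 11 called lower (lower panel). Red points are KO libraries, blue points control libraries, n = 4 each, and black bars are means. The groups are apart in every gene shown except Lama5, where KO replicate 2 reaches 22.9 FPKM.

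The basement membrane collagens split by network. Of the 5 genes, Col4a4 and Col4a5 rose, Col4a1 and Col4a2 fell, and Col18a1 was not called. Col4a1 and Col4a2 encode the chains of the common type IV network and start head to head on chromosome 8, with transcripts that overlap by 22 bases at their starts on opposite strands. Col4a1 had 2.14, 1.58, 3.13 and 2.26 FPKM in KO replicates 1 to 4, against 5.76, 3.75, 3.88 and 3.51 FPKM in control replicates 1 to 4. Col4a2 had 1.24, 0.857, 1.68 and 1.26 FPKM in KO replicates 1 to 4, against 3.63, 2.60, 2.53 and 2.04 FPKM in control replicates 1 to 4. In both genes every KO library lay below every control library, KO replicate 2 was the lowest and control replicate 1 the highest. Col4a1 averaged 2.28 ± 0.640 FPKM in KO and 4.23 ± 1.03 FPKM in control libraries (log2 change -0.67, SE 0.17, limma adjusted p = 0.0135), and Col4a2 averaged 1.26 ± 0.338 FPKM in KO and 2.70 ± 0.667 FPKM in control libraries (log2 change -0.71, SE 0.15, limma adjusted p = 0.00597). Without control replicate 1 the log2 changes were -0.54 for Col4a1 and -0.59 for Col4a2 (limma, adjusted p = 0.0325 and 0.0145). Without KO replicate 2 they were -0.57 for Col4a1 and -0.62 for Col4a2 (limma, adjusted p = 0.0211 and 0.00918). The ratio of Col4a1 to Col4a2 was 1.73 to 1.86 over KO libraries and 1.45 to 1.72 over control libraries.

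The shared start region of this pair is shown because both genes fell together. The RefSeq windows on GRCm38.p6 are chr8:11312777-11313076 on the minus strand for Col4a1 and chr8:11312555-11312854 on the plus strand for Col4a2, and they share 78 bases. Capitals again mark GC boxes and CCAAT boxes.
Col4a1: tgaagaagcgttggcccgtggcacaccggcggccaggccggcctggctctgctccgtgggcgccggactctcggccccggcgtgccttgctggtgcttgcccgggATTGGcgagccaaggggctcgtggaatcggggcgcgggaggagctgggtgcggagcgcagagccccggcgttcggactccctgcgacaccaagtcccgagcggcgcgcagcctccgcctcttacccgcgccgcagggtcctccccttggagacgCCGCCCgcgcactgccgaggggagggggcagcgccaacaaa
Col4a2: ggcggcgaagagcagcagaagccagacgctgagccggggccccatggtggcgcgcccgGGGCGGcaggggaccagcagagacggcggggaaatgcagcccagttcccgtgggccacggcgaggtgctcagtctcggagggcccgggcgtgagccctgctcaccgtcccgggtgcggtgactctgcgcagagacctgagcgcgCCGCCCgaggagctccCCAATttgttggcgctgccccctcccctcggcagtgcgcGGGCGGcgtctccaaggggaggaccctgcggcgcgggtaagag
The Col4a1 window holds 1 GC box and 1 CCAAT box and the Col4a2 window 3 GC boxes and 1 CCAAT box, with no TATAAA or TTTATA in either. The stretch that the windows share holds 1 GC box, which is therefore counted in both. A window was found for 34 of the 51 genes.

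Col4a4 and Col4a5 belong to the type IV network known from kidney glomeruli and other specialised membranes. Col4a4 had 2.25, 2.37, 1.96 and 1.89 FPKM in KO replicates 1 to 4, against 0.960, 0.360, 0.370 and 0.331 FPKM in control replicates 1 to 4. Col4a5 had 1.18, 0.795, 0.967 and 1.01 FPKM in KO replicates 1 to 4, against 0.622, 0.247, 0.279 and 0.229 FPKM in control replicates 1 to 4. Both were higher in every KO library than in every control library, although control replicate 1 stood above the other controls in each. Col4a4 averaged 4.19-fold more in KO libraries (log2 change 1.07, SE 0.14, limma adjusted p = 0.000345) and Col4a5 2.87-fold more (log2 change 0.57, SE 0.11, limma adjusted p = 0.00343). Their network partner Col4a3 lay below the floor and was not tested, with 0.463 to 0.593 FPKM in KO libraries and 0.129 to 0.436 FPKM in control libraries, ranges that do not overlap. Col18a1, the precursor of endostatin, averaged 5.27 ± 0.308 FPKM in KO and 7.29 ± 2.00 FPKM in control libraries and was not called (log2 change -0.37, SE 0.17, limma adjusted p = 0.108). It was called lower without control replicate 2, with a log2 change of -0.51 (limma, adjusted p = 0.0256), and under 3 of the scalings tried, while equal totals turned it to 0.25 without a call (limma, adjusted p = 0.365).

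Of the 5 genes for beaded filament and short-chain collagens, Col6a3 was called lower and Col6a1, Col6a2, Col6a4 and Col8a2 were not called. For rises in this group limma gave 0 calls, and 1 gene at an unadjusted p under 0.05. Against 25.9% of all genes tested that rose, 5 genes are too few to read anything from this. Type VI collagen forms beaded filaments around cells. Col6a3 had 0.229, 0.261, 0.373 and 0.335 FPKM in KO replicates 1 to 4, against 1.17, 0.541, 0.441 and 0.664 FPKM in control replicates 1 to 4. The KO libraries were all lower than the controls, control replicate 1 was the highest, and the call was near the threshold (log2 change -0.37, SE 0.13, limma adjusted p = 0.0424) and was lost without any single library other than control replicate 3, with adjusted p between 0.0536 and 0.0861. Col6a1 had 2.80, 2.48, 3.96 and 2.74 FPKM in KO replicates 1 to 4, against 3.78, 0.730, 1.05 and 0.891 FPKM in control replicates 1 to 4. Control replicates 2 to 4 were the lowest libraries and control replicate 1 was the second highest, and the difference did not pass (log2 change 0.73, SE 0.30, limma adjusted p = 0.0789). Without control replicate 1 it was called higher in KO with a log2 change of 1.07 (limma, adjusted p = 0.00109). As for Col1a2 and Col3a1, nothing is read from that call. Col6a2 averaged 1.77 ± 0.214 FPKM in KO and 2.26 ± 1.3 FPKM in control libraries and was called in neither case. Col6a4, another beaded filament chain, averaged 3.64 ± 0.853 FPKM in KO and 3.15 ± 1.38 FPKM in control libraries. Col8a2, a short-chain collagen, averaged 1.03 ± 0.231 FPKM in KO and 0.833 ± 0.142 FPKM in control libraries. The ratio of Col6a1 to Col6a2 was 1.45 to 1.92 over KO libraries and 0.471 to 0.901 over control libraries.

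The other collagens comprised 10 genes, of which Col12a1, Col25a1, Col14a1 and Col9a2 rose, Col13a1 fell and 5 were not called. Col13a1, a transmembrane collagen at cell adhesion sites, had 1.2, 2.19, 1.38 and 1.68 FPKM in KO replicates 1 to 4, against 4.56, 4.55, 6.67 and 8.17 FPKM in control replicates 1 to 4. No KO library reached the lowest control library, and the means of 1.61 ± 0.432 FPKM in KO and 5.99 ± 1.76 FPKM in control libraries differed 3.71-fold (log2 change -1.40, SE 0.19, limma adjusted p = 0.000467). Col25a1, another transmembrane collagen, had 4.92, 4.33, 5.13 and 5.12 FPKM in KO replicates 1 to 4, against 2.90, 2.60, 2.50 and 2.25 FPKM in control replicates 1 to 4. It went the other way without overlap (log2 change 0.72, SE 0.10, limma adjusted p = 0.000462). Col12a1, which sits on the surface of type I fibrils, had 1.62, 2.21, 0.955 and 0.927 FPKM in KO replicates 1 to 4, against 0.375, 0.113, 0.200 and 0.106 FPKM in control replicates 1 to 4. KO replicates 1 and 2 were the highest, all controls were under 0.5 FPKM, and KO libraries averaged 7.19-fold more (log2 change 0.99, SE 0.17, limma adjusted p = 0.00168).

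Col14a1, another fibril-surface collagen, averaged 3.02 ± 0.562 FPKM in KO and 1.66 ± 0.204 FPKM in control libraries (log2 change 0.59, SE 0.12, limma adjusted p = 0.00463). Col9a2, a chain of the fibril-associated type IX collagen, averaged 2.31 ± 0.740 FPKM in KO and 1.22 ± 0.176 FPKM in control libraries (log2 change 0.55, SE 0.15, limma adjusted p = 0.0192). That call was lost without control replicate 1 (limma, adjusted p = 0.0526) and after quantile normalization (limma, adjusted p = 0.0787). It was lost too with the most abundant entry alone (limma, adjusted p = 0.0512). That entry, a processed transcript, held 67.6% of the Col9a2 sum in KO and 71.2% in control libraries. The 5 genes that were not called were Col22a1, Col17a1, Col16a1, Col26a1 and Col9a3. Col17a1, a hemidesmosome collagen, had the widest spread among controls of this group, 0.903 to 5.66 FPKM, against 4.83 to 8.32 FPKM in KO libraries, and missed the threshold (log2 change 0.89, SE 0.35, limma adjusted p = 0.0719). It was called higher without control replicate 3, with a log2 change of 1.13 (limma, adjusted p = 0.0344). Col22a1, found at tissue junctions, was called lower without KO replicate 2, with a log2 change of -0.38 (limma, adjusted p = 0.0118), against -0.27 with all libraries. Col9a3 rested on estimates near 0 fragments in KO replicate 4 and was called lower without KO replicate 3, with a log2 change of -0.61 (limma, adjusted p = 0.0359). Its 2 deposited entries are both typed as retained introns, so its values include no protein-coding entry. Col16a1 had 0.647 to 2.45 FPKM in KO and 0.519 to 1.25 FPKM in control libraries. Col26a1 had 0.678 to 1.48 FPKM in KO and 0.678 to 1.23 FPKM in control libraries, so both genes overlapped. A retained-intron entry held 78.3% of the Col26a1 sum in KO and 91.4% in control libraries.

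**Figure D3:**
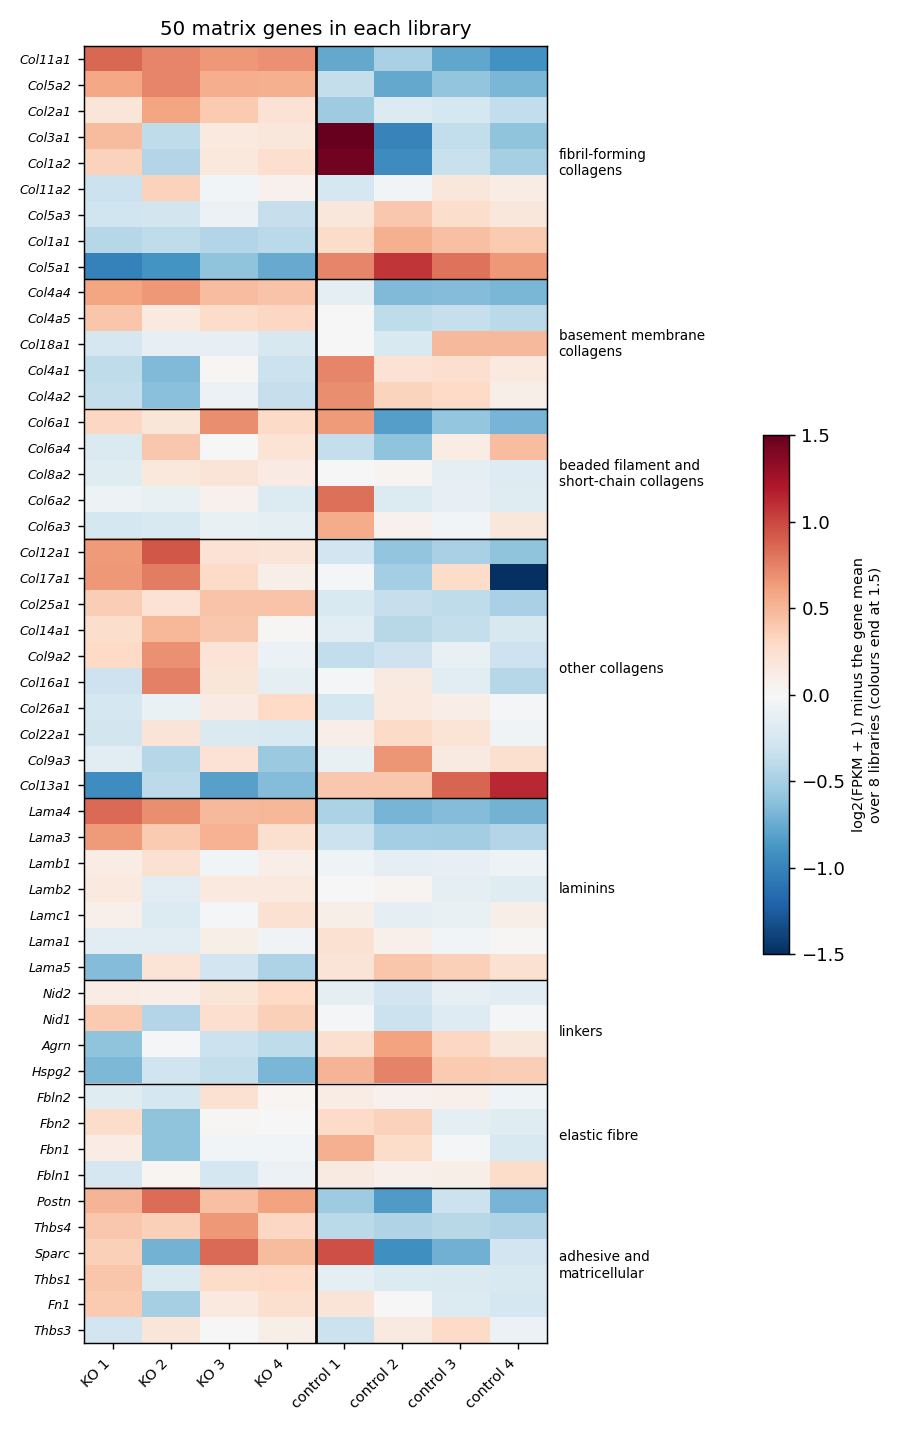
Of the matrix genes, 50 are drawn (rows, by role), each in every library (columns, KO replicates 1 to 4 left of control replicates 1 to 4), coloured by log2(FPKM + 1) minus the gene's mean over the 8 libraries. Col5a1 and Col13a1 are blue in all KO columns and Col11a1 and Lama4 are red in them, while Col1a2, Col3a1, Col6a2 and Sparc are darkest red in the column of control replicate 1.

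Among the laminins, the cross-shaped trimers of basement membranes, 3 of 8 rose, Lama4 and Lama3 among them, Lama5 fell and 4 were not called (Lamb1, Lamc1, Lamb2 and Lama1). Lama4, the alpha chain typical of vessels and muscle, had 3.5, 3.07, 2.52 and 2.53 FPKM in KO replicates 1 to 4, against 0.798, 0.549, 0.594 and 0.539 FPKM in control replicates 1 to 4. KO libraries were all above controls and averaged 4.69-fold more (log2 change 1.27, SE 0.11, limma adjusted p = 3.81e-05). Lama3, an alpha chain of skin and other epithelia, had 9.57, 7.95, 8.73 and 7.06 FPKM in KO replicates 1 to 4, against 4.42, 3.77, 3.73 and 4.03 FPKM in control replicates 1 to 4. It averaged 2.09-fold more in KO libraries without overlap (log2 change 0.90, SE 0.11, limma adjusted p = 0.000247).

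Lama5, the broad alpha chain of epithelial basement membranes, had 12.2, 22.9, 16.0 and 14.1 FPKM in KO replicates 1 to 4, against 22.8, 26.7, 25.6 and 23.4 FPKM in control replicates 1 to 4. KO replicate 2 lay within the control range while the other KO libraries lay below it, and the gene passed the test (log2 change -0.60, SE 0.17, limma adjusted p = 0.0188). The call was lost without KO replicate 4 (limma, adjusted p = 0.0513) and without control replicate 2 (limma, adjusted p = 0.0533), and the sign turned under equal totals. The ratio of Lama4 to Lama5 was 0.134 to 0.287 over KO libraries and 0.0206 to 0.0350 over control libraries, so Lama5 had the higher FPKM of the pair in every library.

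Lamb1 and Lamc1, chains shared by most laminins, were not called. Lamb1, the widespread beta chain, had 38.1, 41.3, 34.0 and 37.6 FPKM in KO replicates 1 to 4, against 33.6, 31.7, 32.1 and 33.3 FPKM in control replicates 1 to 4. Every KO library was above every control library, but the difference was small and did not pass (log2 change 0.20, SE 0.08, limma adjusted p = 0.0666), and it passed without KO replicate 3 with a log2 change of 0.25 (limma, adjusted p = 0.0476). On the protein-coding entries of Lamb1 alone the groups overlapped (log2 change 0.17, limma adjusted p = 0.0869). There KO replicate 3 had 32.6 FPKM and control replicate 1 had 32.7 FPKM. Lamc1, the widespread gamma chain, had 16.3, 13.2, 15.2 and 18.3 FPKM in KO replicates 1 to 4, against 16.5, 13.9, 14.2 and 16.4 FPKM in control replicates 1 to 4. Its groups overlapped (log2 change 0.04, SE 0.11, limma adjusted p = 0.812). Lamb2, the beta chain of muscle and kidney membranes, averaged 3.76 ± 0.492 FPKM in KO and 3.32 ± 0.321 FPKM in control libraries. Lama1, the embryonic alpha chain, averaged 0.865 ± 0.148 FPKM in KO and 1.06 ± 0.174 FPKM in control libraries. They were not called, with log2 changes of 0.14 for Lamb2 and -0.14 for Lama1.

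Among the linkers, which join laminins to type IV collagen and to the cell, Nid2 rose, Hspg2 and Agrn fell and Nid1 was not called. Hspg2 encodes perlecan, the large heparan sulphate proteoglycan of basement membranes, and had 8.18, 10.9, 10.5 and 8.11 FPKM in KO replicates 1 to 4, against 19.9, 23.7, 18.2 and 18.0 FPKM in control replicates 1 to 4. No KO library reached the controls, and the means of 9.42 ± 1.48 FPKM in KO and 19.97 ± 2.62 FPKM in control libraries differed 2.12-fold (log2 change -1.01, SE 0.13, limma adjusted p = 0.000318). Agrn encodes agrin, a second heparan sulphate proteoglycan, and had 9.10, 14.2, 11.3 and 10.7 FPKM in KO replicates 1 to 4, against 17.1, 22.3, 18.0 and 16.3 FPKM in control replicates 1 to 4. The groups were apart, with KO replicate 2 the highest KO library (log2 change -0.66, SE 0.14, limma adjusted p = 0.00535), and the change was 0.01 under equal totals. That order came from the summing of entries, as a retained-intron entry of Agrn had 10.3 FPKM in KO replicate 2. On the most abundant Agrn entry alone KO replicate 2 was the lowest library, at 3.61 FPKM. The groups were apart there too (log2 change -0.94, limma adjusted p = 0.00513). Nid2, a nidogen, had 37.4, 37.1, 39.5 and 42.9 FPKM in KO replicates 1 to 4, against 31.5, 28.1, 31.8 and 30.9 FPKM in control replicates 1 to 4. All KO libraries were higher, by 1.28-fold on average (log2 change 0.35, SE 0.08, limma adjusted p = 0.00639), a call that was lost under equal totals without small RNA genes (limma, adjusted p = 0.076). Its paralogue Nid1 averaged 10.7 ± 2.78 FPKM in KO and 8.48 ± 0.934 FPKM in control libraries (log2 change 0.28, SE 0.18, limma adjusted p = 0.265), with KO replicate 2 the lowest of all libraries at 6.63 FPKM, and without that library it was called higher with a log2 change of 0.47 (limma, adjusted p = 0.00451).

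Of the 4 elastic fibre genes Fbln1 fell and Fbn1, Fbn2 and Fbln2 were not called, and limma gave 0 rises here, also 0 at an unadjusted p under 0.05. Over all genes tested 25.9% rose, so with only 4 genes nothing is read from the lack of rises. Fbln1, a fibulin of basement membranes and elastic fibres, had 18.9, 23.2, 18.7 and 21.2 FPKM in KO replicates 1 to 4, against 25.1, 24.0, 24.2 and 27.6 FPKM in control replicates 1 to 4. The groups did not overlap, but the highest KO library and the lowest control library were less than 1 FPKM apart, and the change was small (log2 change -0.29, SE 0.09, limma adjusted p = 0.0323). The call was lost without any single library other than KO replicate 2 or control replicate 2, with adjusted p between 0.0556 and 0.0974 by limma, and the sign turned under equal totals. Fbn2, the fibrillin of developing tissue, had 19.4, 10.1, 16.1 and 16.0 FPKM in KO replicates 1 to 4, against 19.5, 20.4, 14.3 and 13.8 FPKM in control replicates 1 to 4, with the groups overlapping and KO replicate 2 the lowest (log2 change -0.15, SE 0.20, limma adjusted p = 0.582). Without KO replicate 2 its log2 change was 0.025. Fbn1, the main fibrillin of microfibrils, averaged 1.86 ± 0.565 FPKM in KO and 2.50 ± 0.816 FPKM in control libraries. Fbln2, a fibulin, averaged 0.673 ± 0.263 FPKM in KO and 0.775 ± 0.0928 FPKM in control libraries, with overlap in both.

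Of the 6 adhesive and matricellular genes Postn, Thbs4 and Thbs1 rose and Fn1, Sparc and Thbs3 were not called, with 0 falls by limma and 0 at an unadjusted p under 0.05. Only 11.8% of all genes tested fell, so with 6 genes nothing is read from the lack of falls. Postn encodes periostin, which binds integrins and fibronectin, and had 3.83, 5.07, 3.63 and 4.16 FPKM in KO replicates 1 to 4, against 1.34, 0.880, 1.71 and 1.08 FPKM in control replicates 1 to 4. KO libraries were all higher than controls and averaged 3.33-fold more (log2 change 1.2, SE 0.14, limma adjusted p = 0.000188). Thbs4, a thrombospondin of tendon and muscle, had 2.13, 2.04, 2.74 and 1.94 FPKM in KO replicates 1 to 4, against 0.793, 0.739, 0.771 and 0.728 FPKM in control replicates 1 to 4. The controls lay within 0.1 FPKM of each other and below every KO library, with a 2.92-fold difference of means (log2 change 0.86, SE 0.10, limma adjusted p = 0.000156). Thbs1, which activates latent TGF-beta, averaged 1.08 ± 0.373 FPKM in KO and 0.568 ± 0.0464 FPKM in control libraries with overlapping groups, since KO replicate 2 had 0.544 FPKM. Its call (log2 change 0.39, SE 0.13, limma adjusted p = 0.0442) was lost without any single library other than KO replicate 2, with adjusted p between 0.0743 and 0.104 by limma, and with a pseudocount of 0.1 (limma, adjusted p = 0.0502).

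Fn1, fibronectin, had the highest mean FPKM of the 51 genes, with 65.6, 35.1, 55.4 and 59.1 FPKM in KO replicates 1 to 4, against 56.9, 49.98, 43.1 and 41.3 FPKM in control replicates 1 to 4. KO replicate 2 was the lowest of all libraries while the other 3 KO libraries had at least 55.4 FPKM, and the groups overlapped (log2 change 0.14, SE 0.19, limma adjusted p = 0.585). Without KO replicate 2 it was called higher in KO with a log2 change of 0.33 (limma, adjusted p = 0.0463). That library had the lowest Sertoli marker sum without Ctsl among KO libraries, so nothing is read from that call. Sparc, a collagen-binding glycoprotein, averaged 10.9 ± 4.62 FPKM in KO and 8.15 ± 6.20 FPKM in control libraries and was not called (log2 change 0.49, SE 0.44, limma adjusted p = 0.414), with its highest value, 17.3 FPKM, in control replicate 1. Without that library its log2 change was 0.89 and it was still not called (limma, adjusted p = 0.0826). Thbs3, another thrombospondin, averaged 12.4 ± 1.77 FPKM in KO and 12.6 ± 2.46 FPKM in control libraries, with overlap.

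Some matrix genes list several transcripts whose values were summed. Where the annotation types only some of them as protein coding, the coding entries alone were summed as a choice made after seeing the data. For Lama5 the coding entry held 36.5% of the KO sum and 56.5% of the control sum, and it had 5.95 ± 1.69 FPKM in KO and 13.9 ± 3.23 FPKM in control libraries (log2 change -1.11, SE 0.20, limma adjusted p = 0.00207). On that entry KO replicate 2 was the lowest library and the groups did not overlap. Coding entries of Hspg2 averaged 4.60 ± 1.22 FPKM in KO and 12.5 ± 4.63 FPKM in control libraries (log2 change -1.23, SE 0.25, limma adjusted p = 0.00348), while its single most abundant entry, a processed transcript, was not called (limma, adjusted p = 0.185). Among the other called genes with entries of both kinds that could be tested, coding entries of Col9a2, Lama4 and Postn were also called higher and those of Col13a1 and Col1a1 lower. Exons of Col4a1 and Col4a2, Thbs3 and Mtx1, Fbn1 and Gm9913, Nid2 and Rtraf, and Col9a3 and Tcfl5 overlap on opposite strands in the annotation, and the sources used here do not say whether the authors' quantification used strand, so reads of these pairs may not be told apart.

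Several genes, some of them called and some not, varied between the libraries of a group, and markers of testis somatic cells did so too. In such bulk libraries fewer cells of a type and less RNA per cell cannot be told apart. The 11 Sertoli cell markers other than Ctsl, also a matrix protease, summed to 54.3, 27.7, 72.3 and 64.6 FPKM in KO replicates 1 to 4 and to 61.9, 20.4, 20.8 and 27 FPKM in control replicates 1 to 4. The 4 highest libraries were KO replicates 1, 3 and 4 and control replicate 1. The same 4 libraries were the 4 highest for Col6a1, Sparc, Col3a1, Fn1, Col1a2 and Thbs1, 11.8% of the 51 genes against 4.65% of all genes tested, and for Lama2, Thbs2, Lamc3 and Col15a1 among the 13 matrix genes under the floor. Control replicate 1 was the highest control in 49.0% of the 51 genes, against 24.3% of all genes tested. It was at least 2 times the next control in Col6a1, Sparc, Col6a2, Col3a1, Col1a2, Col4a5 and Col4a4, 13.7% of the 51 genes against 0.643% of all genes tested. The 6 stromal fibroblast markers summed to 8.32, 4.74, 8.01 and 7.51 FPKM in KO and 10.5, 3.53, 4.52 and 4.33 FPKM in control libraries, with control replicate 1 again the highest.

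**Figure D4:**
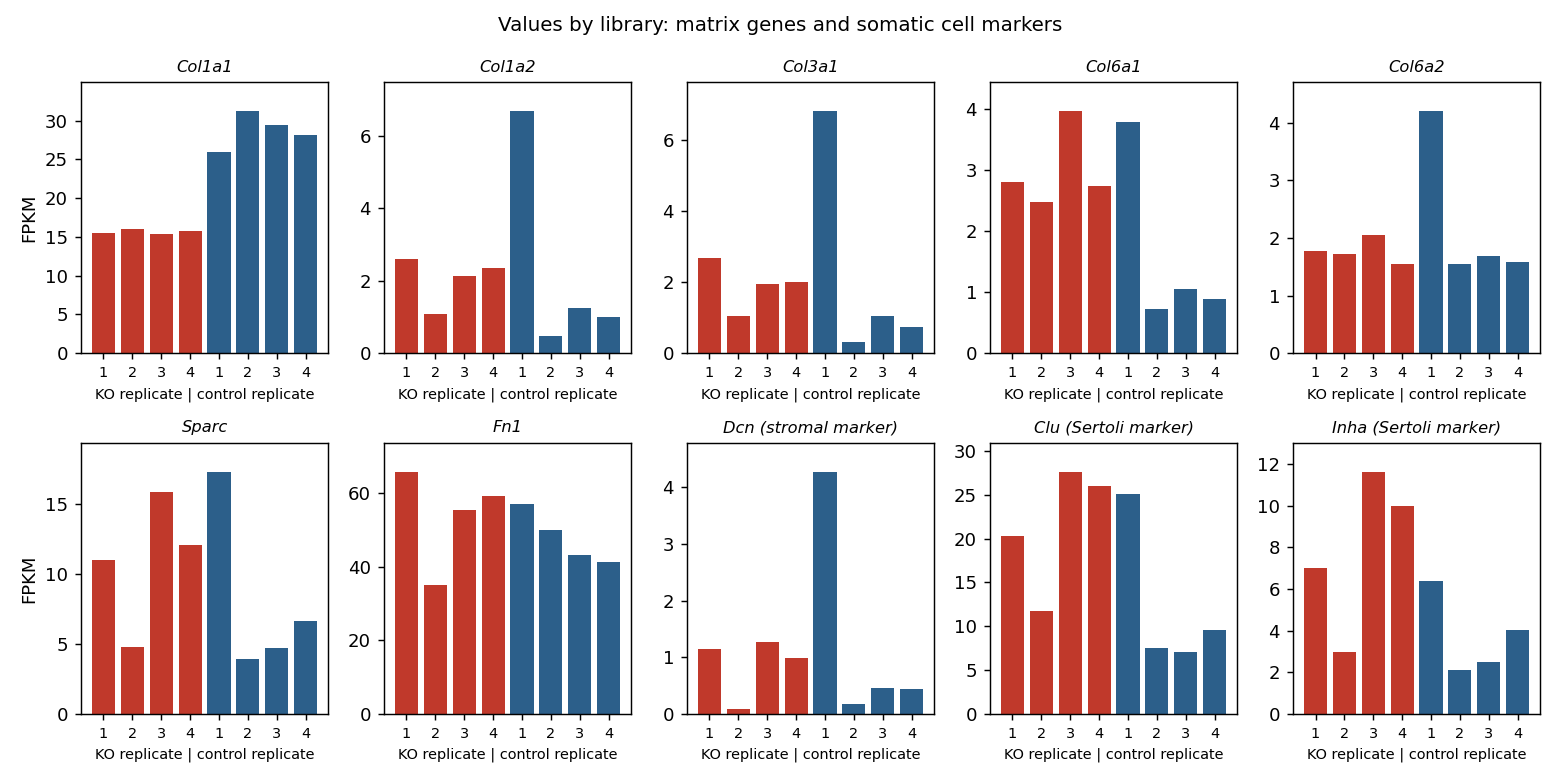
FPKM per library (bars, vertical axes from 0) for 7 matrix genes, the stromal marker Dcn and the Sertoli cell markers Clu and Inha, with KO replicates 1 to 4 in red left of control replicates 1 to 4 in blue. Col1a2, Col3a1, Col6a2 and Dcn peak in control replicate 1, while Col1a1 is between 15.3 and 16.0 FPKM in KO libraries and between 25.9 and 31.2 FPKM in controls.

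Of 10 tested Sertoli markers Ctsl alone was called, higher in KO, with 2 higher and 0 lower at an unadjusted p under 0.05 (limma), and with Ctsl the 12 Sertoli markers summed to 153 to 185 FPKM in KO and 74.8 to 122 FPKM in control libraries. The median log2 change of the 10 tested was 0.59, beside 0.10 for all genes tested. Without Ctsl the sum averaged 54.7 FPKM in KO and 32.6 FPKM in control libraries. Of 5 peritubular myoid markers Des rose and Myl9 fell, and the summed level was 6.88 to 11.3 FPKM in KO and 8.62 to 12.9 FPKM in control libraries. Of 6 endothelial markers Pecam1, Tek and Flt1 rose, by 1.22, 1.31 and 0.41 on the log2 scale, and Plvap fell, with a log2 change of -1.96, with sums of 15.8 to 16.4 FPKM in KO and 10.2 to 16.8 FPKM in control libraries. Stromal markers gave 0 calls of 4, with 1 higher at an unadjusted p under 0.05, and the lowest adjusted p were 0.103 for Dpt and 0.111 for Pdgfrb (limma). Of 9 macrophage markers 2 were in the table, with sums of 2.75 to 6.04 FPKM in KO and 2.11 to 3.46 FPKM in control libraries, and Fcgr3 rose. Of 6 Leydig cell markers Star alone was in the table, at 1.23 to 1.83 FPKM in KO and 1.24 to 2.16 FPKM in control libraries, and was not called. The red blood cell marker Alas2 rose, and its list summed to 1.60 to 2.50 FPKM in KO and 0.282 to 0.760 FPKM in control libraries. No marker was at exactly 0 in any library, and the red cell globin Hbb-b1 was the lowest, at 1.8e-05 FPKM in control replicate 2. The part of these cells in the matrix results was not tested. When control replicate 1 and KO replicate 2 were left out together, a choice made after seeing the data, 22 matrix genes rose and 11 fell, while 4108 of all 15083 genes rose and 2017 fell. That leaves 3 KO libraries with high and 3 control libraries with low Sertoli marker sums, so any gene that follows those sums is higher in KO by construction, and nothing is read from these counts. Leaving out control replicate 1 alone, or KO replicate 2 alone, shifts those sums between the groups in the same direction. The calls gained that way by Col1a2, Col3a1, Col6a1, Fn1 and Nid1 are therefore not read as changes in KO.

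Genes that build, turn over and bind the matrix were then counted. Of 19 tested genes for collagen biosynthesis and assembly 5 rose and 4 fell, with 3 and 4 after median-ratio scaling or quantile normalization and 15 and 0 under equal totals, and their median log2 change was 0.15. Over all genes tested, for these and the next 2 lists, 25.9% rose and 11.8% fell. Pcolce2, an enhancer of procollagen processing, averaged 4.88 ± 1.05 FPKM in KO and 0.582 ± 0.185 FPKM in control libraries, an 8.39-fold difference (log2 change 1.88, SE 0.15, limma adjusted p = 2.25e-05). P4ha1, a subunit of prolyl hydroxylase, averaged 15.7 ± 0.877 FPKM in KO and 10.4 ± 0.801 FPKM in control libraries (log2 change 0.55, SE 0.08, limma adjusted p = 0.000912). Lepre1, a prolyl 3-hydroxylase gene, averaged 15.1 ± 0.831 FPKM in KO and 11 ± 0.327 FPKM in control libraries (log2 change 0.43, SE 0.07, limma adjusted p = 0.00194). Adamts14, a protease that removes procollagen ends, averaged 0.903 ± 0.194 FPKM in KO and 1.98 ± 0.366 FPKM in control libraries and fell (log2 change -0.65, SE 0.12, limma adjusted p = 0.00237).

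Of 15 tested genes for matrix turnover 8 rose and 7 were not called, with a median log2 change of 0.36. For falls limma gave 0 calls, with 1 gene at an unadjusted p under 0.05, while quantile normalization gave 6 rises and 3 falls and median-ratio scaling 7 rises and 1 fall. Mmp2, a gelatinase that cuts type IV collagen, averaged 12.9 ± 0.688 FPKM in KO and 4.50 ± 1.01 FPKM in control libraries, a 2.88-fold difference (log2 change 1.36, SE 0.13, limma adjusted p = 7.56e-05). Timp1, an inhibitor of these proteases, averaged 8.70 ± 3.58 FPKM in KO and 2.19 ± 0.487 FPKM in control libraries (log2 change 1.54, SE 0.25, limma adjusted p = 0.00135). The lysosomal protease Ctsl averaged 116 ± 18.7 FPKM in KO and 65.0 ± 10.8 FPKM in control libraries (log2 change 0.83, SE 0.14, limma adjusted p = 0.00175), and the membrane protease Mmp16 averaged 1.86 ± 0.753 FPKM in KO and 0.499 ± 0.0502 FPKM in control libraries (log2 change 0.90, SE 0.17, limma adjusted p = 0.00262).

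Of 18 tested matrix receptors 7 rose, 3 fell and 8 were not called, with 6 and 5 after median-ratio scaling and 13 and 1 under equal totals, and their median log2 change was 0.14. Itga9, an integrin chain for tenascin and fibronectin splice forms, averaged 0.790 ± 0.138 FPKM in KO and 2.90 ± 0.365 FPKM in control libraries and fell (log2 change -1.12, SE 0.10, limma adjusted p = 5.23e-05). Itga5, the classical fibronectin receptor chain, averaged 3.32 ± 0.205 FPKM in KO and 1.2 ± 0.245 FPKM in control libraries and rose (log2 change 0.98, SE 0.10, limma adjusted p = 0.000104). Sdc3, a heparan sulphate syndecan, averaged 0.529 ± 0.102 FPKM in KO and 1.37 ± 0.153 FPKM in control libraries and fell (log2 change -0.63, SE 0.09, limma adjusted p = 0.000548). Cd47, a receptor of thrombospondin, averaged 33.4 ± 6.65 FPKM in KO and 18.9 ± 2.13 FPKM in control libraries and rose (log2 change 0.77, SE 0.14, limma adjusted p = 0.00214).

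The 13 matrix genes under the floor had means of 0.227 to 0.493 FPKM and were not tested. In Col4a3, Col6a5, Col6a6 and Col24a1 every KO library was above every control library, and in Col27a1 every KO library was below. These 5 of 13 genes are no larger a share than the 38.5% of all genes tested whose groups did not overlap. Col24a1, a fibril-forming collagen of developing bone and cornea, had 0.465, 0.853, 0.655 and 0.508 FPKM in KO replicates 1 to 4, against 0.139, 0.126, 0.147 and 0.223 FPKM in control replicates 1 to 4. Col27a1, a fibril-forming collagen of cartilage, had 0.187, 0.276, 0.199 and 0.143 FPKM in KO replicates 1 to 4, against 0.581, 0.796, 0.660 and 0.344 FPKM in control replicates 1 to 4. Both chains were under 1 FPKM in every library.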

How the data were processed

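The authors deposited FPKM for 45550 transcript entries with 1 column per library. The tools named, per the submitters' processing notes, are Bowtie, TopHat, Cuffdiff and Cufflinks, on the mm10 build. Their versions and the annotation were not given in the sources used here. Such values are scaled to the total of a library, which lets a few very abundant RNAs move all other genes, and Cufflinks divides reads among transcripts that share sequence. Entries were summed to 17589 genes by identifier, which the planned design, written for gene values, had not foreseen. Positions and transcript types came from GENCODE M21 on GRCm38, which is mm10, with 17257 genes matched, and start regions from RefSeq.

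Genes averaging 0.5 FPKM or more were tested on log2(FPKM + 1) with limma 3.58.1 in R 4.3.3 (lmFit, eBayes with trend, group as the only term, two-sided, with calls made below 0.05 after Benjamini-Hochberg adjustment). Log2 changes are KO minus control on that scale, which understates changes of low genes, and folds are ratios of mean FPKM. On simulated data made from these 15083 genes, 200 of them changed by a log2 of 1, 87.5% were recovered, with 0 in the wrong direction and 6 false calls. The simulation drew noise for each gene separately, with no scaling or somatic cell difference shared across a library, and its low changed genes only rose. Its false calls do not give the error rate in the real data, where 37.6% of genes were called. Depth was inferred from whole-fragment steps in low FPKM, where 61.5% to 66.4% of values were whole within 0.1 fragment against 20% by chance, too few to recover counts, so no count test was run. No interval for counting error is given, since the FPKM are estimates.

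Values in every library were given for the called genes, up to the 12 of smallest adjusted p in each direction, and for the 8 of highest mean. From the other lists up to 4 called genes by adjusted p were named. Col1a2, Col3a1, Col6a1, Col24a1, Col27a1, Dcn, Clu and Inha fall outside that rule and were shown by library after their values were seen, as were other genes named for their behaviour in single libraries. For 1 matrix gene, counted in the totals, nothing further is reported here. The matrix genes, lists and marker lists were chosen with earlier results of these data known. Alternatives covered the pseudocount, the floor, scaling, robust moderation, the replicate number as a block, the most abundant entry per gene, and each library left out. Leaving out control replicate 1 and KO replicate 2 together, and protein-coding entries alone, were added after seeing the data. Median-ratio scaling uses, per library, the median over genes of the ratio to the geometric mean library, and equal totals sets the same FPKM sum in each library.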

Additional observations from a re-analysis of the deposited data

Results flagged for a closer look

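In groups of 4 libraries, a highest or lowest value was set apart where its gap to the nearest other library took more of the group's whole range than Dixon's critical value for 4 values allows, which chance gives in about 1 of 20 groups. This held for 9 of the 100 groups of matrix genes (9%), and for 10 of 126 groups looked at. Of those 9, control replicate 1 was the library set apart in 7 and KO replicate 2 in 2.

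Control replicate 1 was the highest control library for Col6a1 at 3.78 FPKM, Col6a2 at 4.20 FPKM, Col3a1 at 6.81 FPKM, Col1a2 at 6.68 FPKM, Col4a1 at 5.76 FPKM, Col4a4 at 0.960 FPKM and Col4a5 at 0.622 FPKM. The same library had the highest summed stromal fibroblast markers, 10.5 FPKM, against 3.53 to 4.52 FPKM in the other control libraries, and their part in these values was not tested. Among KO libraries, KO replicate 2 was the highest for Col22a1 at 11.7 FPKM, and the lowest for Lamb2 at 3.02 FPKM. For Kdm1a, control replicate 3 was the highest control library at 92.0 FPKM.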

How the results depend on the processing

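Among the 27 called matrix genes, 22 kept their call whichever single library was left out, the 5 others being Fbln1, Lama5, Col6a3, Thbs1 and Col9a2, and 10 of the 24 uncalled genes were called without some library. Leaving out single libraries gave 15 to 18 rising and 8 to 11 falling matrix genes, 3 to 6 and 2 to 4 biosynthesis genes, 7 to 8 and 0 to 1 turnover genes, 6 to 8 and 2 to 3 receptors, and a Kdm1a log2 change of -2.02 to -1.72. Equal totals gave 30 rising and 2 falling matrix genes, 15 and 0 biosynthesis genes and 13 and 1 receptors, and turned the log2 changes of Fbln1 to 0.41, Lama5 to 0.087, Agrn to 0.011 and Thbs3 to 0.66, because that scaling moved the median of all genes to 0.71. It also turned the uncalled Col18a1 (0.25), Fbn1 (0.21), Fbn2 (0.53), Fbln2 (0.20), Col6a2 (0.33), Lama1 (0.21) and Col22a1 (0.39), none of them called. Rising biosynthesis genes numbered 3 after median-ratio scaling, after quantile normalization and under equal totals without small RNA genes, and 2 with the most abundant entry per gene. Falling turnover genes numbered 1, 3 and 1 under those 3 scalings, and falling receptors 5 after median-ratio scaling. The cause of these was not tested. With a floor of 1 FPKM, 13 matrix genes rose and 9 fell, with fewer tested. Scaling also set how many of all genes were called, 2951 higher and 2739 lower after median-ratio scaling and 10505 and 199 under equal totals, against 3902 and 1773.

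With the replicate number as a block 16 matrix genes rose and 9 fell, with 4 and 4 biosynthesis genes, 8 and 0 turnover genes, 6 and 3 receptors, and a Kdm1a change of -1.92. Under the block Fbln1, Col6a3 and Thbs1 lost their calls and Col17a1 gained one. The labels do not say whether the numbers pair the libraries, and these values cannot settle it. Deviations from the group means correlated at 0.22 for number 1 and at -0.12, -0.13 and -0.09 for numbers 2 to 4. Number 1 alone correlated best with its own number. Genes near the 0.5 FPKM floor rest on few fragments and are the least certain.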
